A study of Mus musculus with 28 samples.

Results

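The passage from mouse embryonic fibroblasts (MEFs) to cells that had been reprogramming for 10 days with wild-type Tet2 returned to them was followed by ATAC-seq, which marks accessible DNA as the places where a transposase can insert. The comparison takes 8 of the 28 libraries of the series: the 4 labelled as Tet2-WT at day 10 and the 4 labelled as untreated control MEFs. The series describes its MEFs as lacking Tet2 (Tet2-/-) and carrying doxycycline-inducible reprogramming factors (OKSM: Oct4, Klf4, Sox2 and c-Myc) with the rtTA activator, from embryos at day 12.5 of strain background V6.5 129XBI/6. The Tet2-WT cells had received Tet2 from a pMXs retrovirus, were grown on mitomycin-treated MEF feeder cells in 2i/LIF medium with doxycycline for 10 days, and were sorted on SSEA1-RFP. The MEFs were untreated, and their labels name no sorting. The other 20 libraries are the day 5 cells of 3 vectors (Tet2-WT, the stalling mutant Tet2-E and empty pMXs) and the day 10 cells of the other 2, with 4 libraries each. The extraction protocol shared by all samples speaks of cells after FACS, so whether the MEFs went through a sorter is unclear. Day, doxycycline, retroviral infection, vector, feeder culture, medium and the SSEA1-RFP sort named for the Tet2-WT cells cannot be told apart. The labels do not say that the replicates were separate cultures or embryos. The p-values therefore speak only of the spread among these libraries, and that spread may be technical.

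Reprogramming factors turn a somatic cell into a pluripotent one over days, and SSEA1 is a surface antigen that mouse cells acquire on the way. Sites that are accessible in fibroblasts are known to close while sites used in pluripotent cells open, and many of both kinds are enhancers far from genes. Oct4, Sox2 and Klf4 bind DNA directly, Sox2 and Oct4 often side by side. Tet2 oxidises 5-methylcytosine, first to 5-hydroxymethylcytosine and then further, which is a route to the removal of DNA methylation at enhancers.

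The authors deposited a list of MACS2 peaks for each library. Overlapping peaks of the 8 lists were merged into 127470 regions on chromosomes 1 to 19 and X, and a region counted as called by every library with a peak in it. The positions are those of mouse build mm9, counted from 1. Genes, gene markers of the labelled cell types and DNA sequences at the regions are not given, because no annotation or genome of that build was used here. A region that is not called may still be accessible below the threshold of the caller, and in a bulk library fewer cells with an open site and less opening per cell cannot be told apart.

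Between MEFs and day 10 with Tet2-WT, far more regions disappeared from the peak lists than appeared in them. Of the regions, 4859 were gained, that is called in 4 of 4 Tet2-WT day 10 and 0 of 4 MEF libraries, and 12309 were lost, called in 0 of 4 Tet2-WT day 10 and 4 of 4 MEF libraries. Another 9649 regions were called in all 8 libraries and are named kept here. Lost regions made up 71.7% of the 17168 that changed.

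Only a region called in exactly 4 of the 8 libraries can pass a test of 4 against 4. Of these 20300 regions, 23.9% were gained and 60.6% were lost (Fisher's exact test, 2-sided p = 0.029, the smallest possible; adjusted p = 0.0338 by the Benjamini-Hochberg method). Among all merged regions the gained made up 3.81% and the lost 9.66%. When the p-values were adjusted over the 75810 regions called in at least 2 libraries, 0 regions passed (exact adjusted p = 0.126, 17168 at unadjusted p under 0.05). The calls also ended when any 1 of the 4 Tet2-WT day 10 libraries was left out (exact adjusted p from 0.0502 to 0.0517), whereas they passed without any 1 of the MEF libraries (0.0446 to 0.0474).

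The balance between the directions moved with the length of the lists and with the overlap rule. When each list was cut to the 30794 peaks with the highest -log10 p, the length of the shortest list, 4658 regions were gained. With these lists 7270 regions were lost, which put 60.9% of the changes among losses. When peaks had to cover 50% or more of a region, the counts were 2106 gained and 9441 lost, and losses made up 81.8%. More regions were lost than gained under each of these rules.

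**Figure D1:**
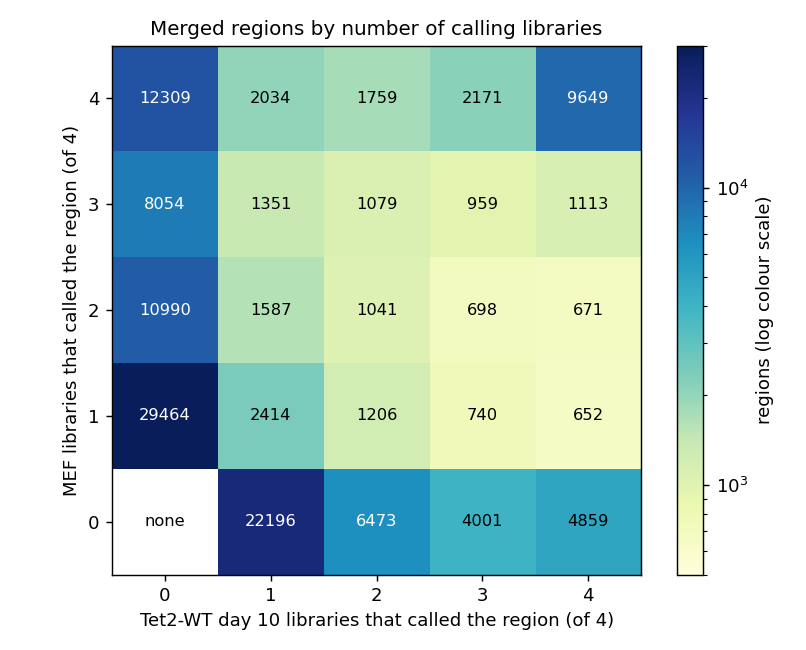
Number of merged regions by how many of 4 Tet2-WT day 10 libraries (horizontal axis) and how many of 4 MEF libraries (vertical axis) called them; the colour scale is logarithmic. The corners hold the 12309 lost, 4859 gained and 9649 kept regions, and between the lost and kept corners lie 1759 to 2171 regions for each number of libraries.

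Most regions that every MEF library called were called by either none or all of the Tet2-WT day 10 libraries. Of these 27922 regions, 44.1% were called in 0 Tet2-WT day 10 libraries and 34.6% in all 4. The remaining 5964 were spread over 2034 regions in 1 library, 1759 in 2 and 2171 in 3. In the other direction, 16944 regions were called in all 4 Tet2-WT day 10 libraries. Of these, 56.9% had been called in all 4 MEF libraries and 28.7% in none, and 652, 671 and 1113 had been called in 1, 2 and 3. Many regions rested on a single list: 22196 were called in 1 Tet2-WT day 10 library and 0 MEF libraries, and 29464 in 1 MEF library and 0 Tet2-WT day 10 libraries.

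The peak lists themselves differed in the length they covered and in the width of their peaks. Tet2-WT day 10 libraries held 40669, 50552, 36365 and 30794 peaks, and MEF libraries held 72140, 41345, 56538 and 52159. These counts overlapped, and the difference did not pass (means 39595 ± 8349 in Tet2-WT day 10 and 55546 ± 12773 in MEFs, SD, n = 4 each; exact permutation p = 0.0571, adjusted p = 0.0714 over 5 values). The peaks covered 8.82, 10.1, 7.26 and 5.31 Mb in Tet2-WT day 10 libraries, against 18.5, 10.6, 13.3 and 12.2 Mb in MEF libraries. No Tet2-WT day 10 list covered as much as the shortest MEF list.

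The median peak width was 169, 153, 155 and 135 bp in Tet2-WT day 10 libraries, and 198, 209, 186 and 185 bp in MEF libraries. Peaks wider than 500 bp made up 3.68% ± 1.47 of each Tet2-WT day 10 list and 7.77% ± 1.45 of each MEF list (SD, n = 4 each). Covered length, median width and the share of wide peaks each fell in Tet2-WT day 10 libraries (exact permutation p = 0.029, which no 4 against 4 test can go below; adjusted p = 0.0476 over 5 values). None of the 3 passed when any 1 Tet2-WT day 10 library, or MEF replicate 1 or 2, was left out (exact adjusted p from 0.0714 to 0.0952).

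Read totals are not given by the lists, so depth was inferred from the background pileup, the expected number of fragments at a position of the genome that the caller's fold and p imply. It was 0.619, 0.587, 0.532 and 0.395 in Tet2-WT day 10 libraries, and 0.660, 0.394, 0.501 and 0.458 in MEF libraries. The ranges overlapped almost wholly, and no difference was detectable (means 0.533 ± 0.0989 in Tet2-WT day 10 and 0.503 ± 0.113 in MEFs, SD, n = 4 each; exact permutation p = 0.686, adjusted p = 0.686). In Tet2-WT day 10 the shallowest library, replicate 4, had the fewest peaks, but the deepest, replicate 1, had fewer than replicate 2. Among MEF libraries the number of peaks ran in the order of the background pileup. The part of depth in the counts of regions was not tested.

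**Figure D2:**
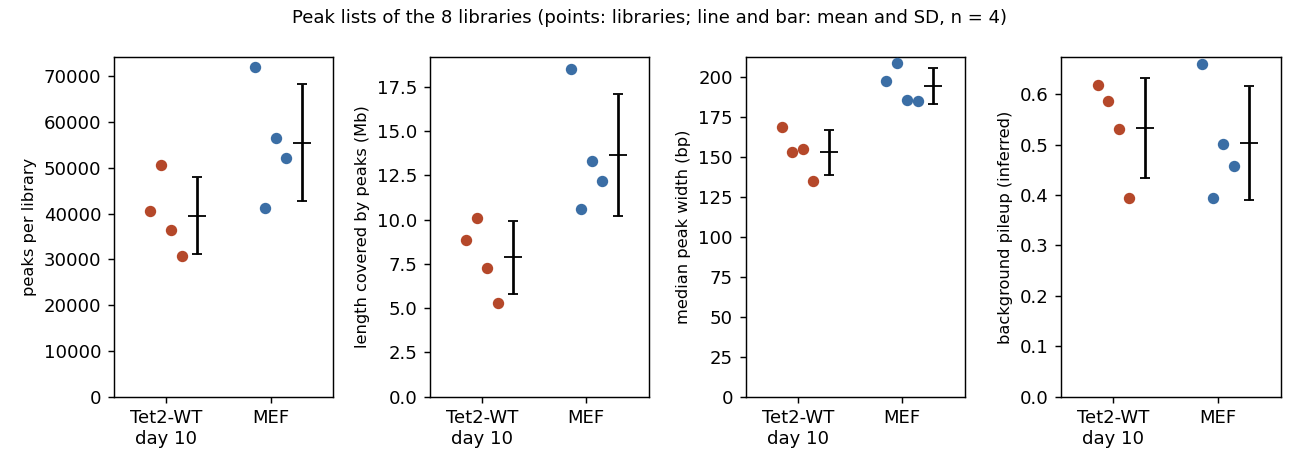
Peaks, covered length in Mb, median peak width in bp and inferred background pileup of the 4 Tet2-WT day 10 and 4 MEF libraries; points are libraries in replicate order, and the line and bar give the mean and SD. The covered length and the peak width do not overlap between the groups, while the background pileup spans 0.395 to 0.619 in Tet2-WT day 10 and 0.394 to 0.660 in MEFs.

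The changed regions were narrower than the kept ones. The median width was 355 bp for gained, 358 bp for lost and 624 bp for kept regions. Of the kept regions 595 were over 1 kb wide, against 0 of the gained and 17 of the lost. Kept regions are merged from 8 lists and changed regions from 4, and the part of this in their widths was not tested.

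Summits were compared in the kept regions that had exactly 1 peak in each of the 8 libraries, which were 4662 of 9649. In these the median difference between the mean summit positions of Tet2-WT day 10 and MEF libraries was 23.5 bp, and 78.1% lay under 50 bp. The median spread of summits among 4 libraries was 78 bp in Tet2-WT day 10 and 65 bp in MEFs. In 402 regions (8.62%) the summits of the groups did not overlap, and in 127 of these they lay over 100 bp apart. No test was made.

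The strength of a peak was described by the authors' fold, the ratio of its summit to the local background, as a percentile within its own list (100 is the highest fold of the list). The peaks of gained regions had median percentiles of 66.0, 71.1, 65.6 and 52.5 in Tet2-WT day 10 replicates 1 to 4. The peaks of lost regions had median percentiles of 77.4, 60.2, 68.3 and 66.3 in MEF replicates 1 to 4. By their medians both kinds lay above the middle of their lists. Both were chosen as called in all 4 of these libraries, which strong peaks manage more easily than weak ones. The part of this choice in the ranks was not tested. The highest 10% of folds held 11.7%, 15.6%, 12.3% and 6.61% of peaks of gained regions in Tet2-WT day 10 replicates 1 to 4. For peaks of lost regions in MEF replicates 1 to 4 these shares were 24.4%, 11.5%, 16.6% and 15.2%. Kept regions ranked at 76.6, 79.1, 70.7 and 68.1 in Tet2-WT day 10 replicates and at 79.5, 69.9, 75.1 and 74.1 in MEF replicates. Averaged over the 4 calling libraries, 232 gained regions (4.77%) and 1405 lost regions (11.4%) had a percentile above 90. Within each group the median percentiles of gained or lost regions ran in the order of the number of peaks in the list. MEF lists were longer on average, at 55546 peaks against 39595 in Tet2-WT day 10. The part of list length in the percentiles was not tested.

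The 10 leading gained regions were called in every reprogramming library of the series. Regions were ranked by the mean percentile of the fold over the 4 calling libraries. The leading gained region, chr9:79678661-79679059, had folds of 15.2, 17.02, 16.5 and 13.6 in the Tet2-WT day 10 libraries and no peak in any MEF library. Its summits in the 4 libraries lay within 62 bp of each other. The next was chr11:11848881-11849367, with folds of 14.7, 13.0, 14.1 and 13.3, followed by chr14:112918080-112918228, with 14.2, 17.6, 11.7 and 15.1. The region on chromosome 14 was only 149 bp wide, and its 4 summits lay within 2 bp.

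The other 7 leading gained regions were chr6:101620459-101620975, chr8:87635754-87635877, chr4:95351351-95351828, chr6:93579858-93580282, chr10:129856827-129857448, chr10:64206858-64207354 and chr15:91694437-91695025, with median folds of 12.7 to 13.6. The region on chromosome 8 was the narrowest of the 10, at 124 bp with summits within 3 bp. All 10 were called in 4 of 4 libraries of each of the 3 vectors at day 5, and in 4 of 4 Tet2-E and 4 of 4 empty vector libraries at day 10.

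The leading lost regions had higher folds in MEF lists than the leading gained regions had in Tet2-WT day 10 lists. Folds belong to their own lists, whose median fold averaged 6.89 in MEFs and 6.55 in Tet2-WT day 10. The leading lost regions differed among themselves in when they left the lists. The leading lost region was chr8:95230238-95230549, with no peak in any Tet2-WT day 10 library and folds of 22.4, 22.0, 22.3 and 24.0 in the MEF libraries, near the top of each list. At day 5 it was called in 2 of 4 Tet2-WT libraries, with folds of 6.97 and 10.5, in 0 of 4 Tet2-E libraries, and in 4 of 4 empty vector libraries, with folds of 4.59 to 6.87. At day 10 it was called in 1 of 8 libraries of the other vectors, an empty vector library with a fold of 5.31. The region chr7:77411855-77412332, with MEF folds of 19.6, 22.0, 19.4 and 23.0, was called in 3 of 4 libraries of each vector at day 5 and in 0 of 12 at day 10.

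Of the 10 leading lost regions, 4 were called in no reprogramming library at either day: chr6:96003486-96003805, chr6:122565815-122566128, chr8:63343696-63344070 and chr6:146134096-146134473. The other 6 were still called in 2 or 3 of 4 Tet2-WT libraries at day 5. Beside the 2 described above these were chr3:126671455-126672020, chr13:80696400-80697032, chr1:96046535-96046979 and chr1:29875694-29876086. The region on chromosome 3 had folds of 21.5, 21.3, 20.6 and 19.5 in the MEF libraries and was called in 2 of 4 libraries of each other vector at day 5. The summits of the 10 regions lay within 11 to 62 bp of each other in the 4 MEF libraries.

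The Tet2-WT libraries at day 5, which took no part in choosing the regions, called most of the gained regions and few of the lost ones. They called 90.5%, 89.5%, 86.2% and 91.0% of the regions that were gained by day 10. They called 9.58%, 8.08%, 20.2% and 14.9% of the regions that were lost by day 10. Of the gained regions, 3825 (78.7%) were called in all 4 Tet2-WT day 5 libraries and 157 (3.23%) in none. Of the lost regions, 8456 (68.7%) were called in none of these libraries and 266 (2.16%) in all 4. The day 5 libraries were deeper by the background pileup, at 1.04, 0.911, 0.860 and 0.844. Depth and day cannot be told apart in these shares.

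Gained regions that some day 5 libraries missed ranked lower at day 10, and lost regions that were still called at day 5 ranked higher in MEFs. The median fold percentile in the Tet2-WT day 10 lists was 65.7 for gained regions called in all 4 Tet2-WT day 5 libraries, and 49.6 to 52.1 for those called in 0, 1, 2 or 3. For lost regions, the median percentile in the MEF lists was 62.9 where 0 Tet2-WT day 5 libraries called the region, and 71.0 to 74.4 where 1 or more did. Between quartiles the groups of regions overlapped widely, at 38.3 to 61.1 for gained regions called in 0 and 52.4 to 77.7 for those called in 4. A call depends on the caller's threshold, which a strong peak passes more easily than a weak one at any day. The part of this in the ranks was not tested, and they do not date the change.

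**Figure D3:**
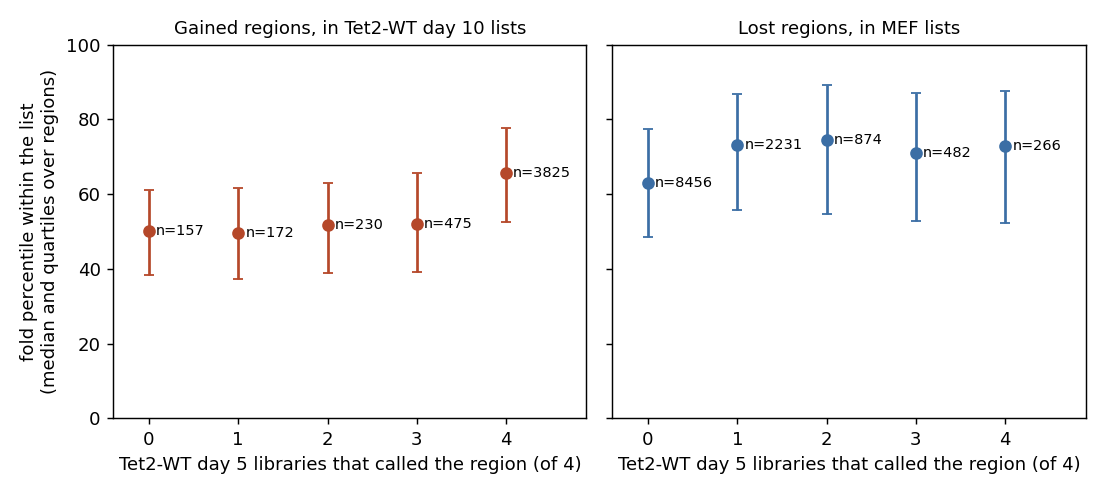
Fold percentile within the list (vertical axis, mean over the 4 calling libraries; points are medians and bars quartiles over regions) of gained regions in Tet2-WT day 10 lists and of lost regions in MEF lists, by the number of Tet2-WT day 5 libraries that called them. Gained regions called in all 4 have a median of 65.7 and lie above the others, and lost regions called in 0 have a median of 62.9 and lie below the others.

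The other vectors at day 10 called most of the same gained regions and few of the lost ones. Tet2-E libraries called 94.7%, 92.1%, 78.6% and 73.3% of the gained regions, and empty vector libraries called 88.6%, 84.7%, 84.3% and 77.1%. Of the lost regions, Tet2-E libraries called 4.48%, 3.23%, 1.57% and 0.934%, and empty vector libraries 4.01%, 2.62%, 2.62% and 1.89%. Of the kept regions, Tet2-E libraries called 98.9%, 97.8%, 94.2% and 92.1%, and empty vector libraries 97.7%, 96.2%, 96.6% and 94.2%. In the Tet2-E libraries each of these shares ran in the order of the background pileup, which was 0.768, 0.636, 0.466 and 0.361. The part of depth was not tested. The regions were chosen on the Tet2-WT libraries, so that 100% and 0% there are fixed by the choice. Over all 20 reprogramming libraries that were not compared, 1993 gained regions (41.0%) were called in every one and 6382 lost regions (51.8%) in none.

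**Figure D4:**
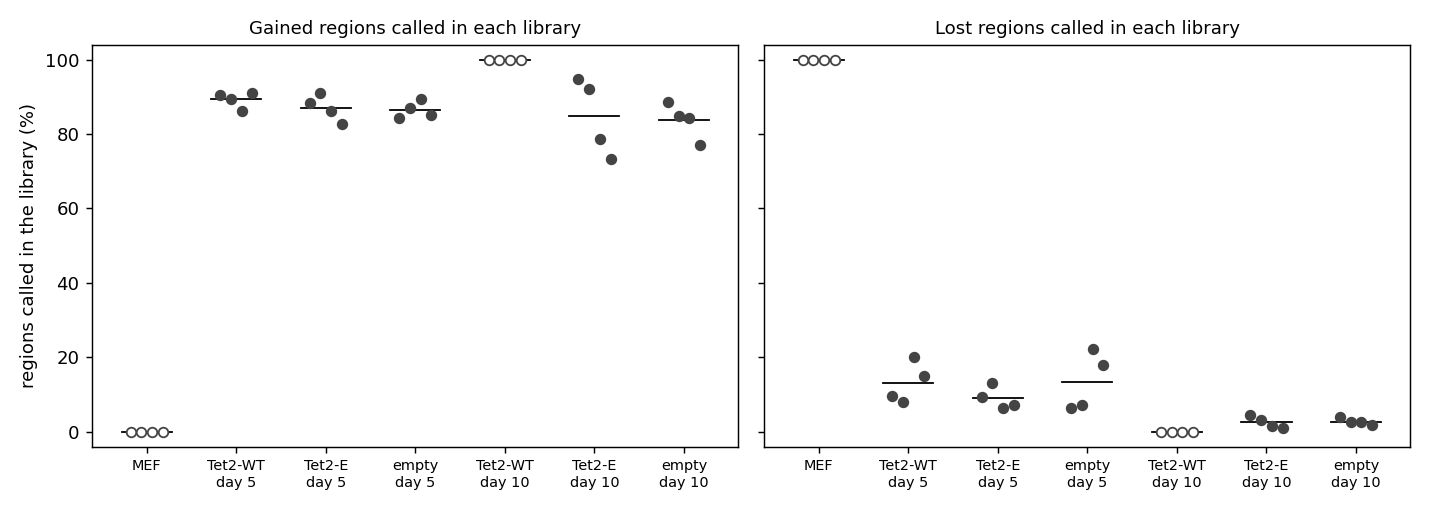
Share of the gained (left) and lost (right) regions, in percent, called in each of the 28 libraries by group; points are libraries, lines are group means, and open points mark the libraries on which the regions were chosen. Day 5 and other day 10 libraries call 73.3% to 94.7% of the gained and 0.934% to 22.4% of the lost regions.

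Many gained regions fell short of a complete gain with another vector, but few were missed by all libraries of both. Of the 4859 gained regions, 2943 were called in 4 of 4 Tet2-E day 10 libraries, 2964 in 4 of 4 empty vector libraries and 2345 in all 8. Peaks of the MEF and all day 10 lists were merged together into 145157 regions so that the 3 vectors could be counted alike against the same MEF libraries, which the 3 comparisons share. With Tet2-WT 4867 regions were gained and 12287 lost, with Tet2-E 3971 and 12522, and with the empty vector 4068 and 12467. Regions gained with 1 vector and called in 0 of 8 libraries of the other 2 numbered 10 for Tet2-WT, 2 for Tet2-E and 5 for the empty vector. Regions lost with 1 vector and called in at least 7 of 8 libraries of the other 2 numbered 4 for Tet2-WT, 6 for Tet2-E and 5 for the empty vector. The day 10 lists also differed in length, with means of 39595 peaks for Tet2-WT, 36801 for Tet2-E and 36570 for the empty vector. Their shortest lists held 30794, 27809 and 31170 peaks. Neither the difference between the vectors nor the part of list length in these counts was tested here.

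Of these few regions, chr1:90422757-90423181 stood out by the strength of its MEF peaks. It was called in 0 of 4 Tet2-WT day 10 libraries and had folds of 16.6, 14.8, 14.3 and 12.7 in the MEF libraries. All 20 of the other reprogramming libraries called it, and it was the only 1 of the 12309 lost regions for which that held. Its folds were 11.7, 6.28, 10.5 and 13.3 with Tet2-WT at day 5. At day 10 they were 6.60, 8.56, 6.53 and 4.41 with Tet2-E and 4.94, 9.15, 9.44 and 7.16 with the empty vector. Folds belong to a peak in its own list, and the lowest of them lay at percentile 1.24 of its list, close to the caller's threshold.

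The other 3 regions lost with Tet2-WT and called in at least 7 of 8 libraries of the other vectors at day 10 were chr1:69735627-69735865, chr2:29480293-29480618 and chr17:35671304-35671595. Their median folds in the MEF libraries were 7.39, 6.98 and 7.14. The 5 highest ranked gained regions with no peak in the 8 other day 10 libraries were chr15:57709874-57710036, chr4:134281003-134281182, chr10:111432930-111433229, chr2:16777067-16777325 and chr4:82401956-82402251. The first had folds of 11.9, 6.30, 7.18 and 7.17 in the Tet2-WT day 10 libraries, and the median folds of the other 4 were 5.34 to 6.17. Each of these 5 was called in at least 1 day 5 library, and chr2:16777067-16777325 in 4 of 4 Tet2-WT and 4 of 4 Tet2-E libraries of that day.

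Lost and gained regions were spread over the genome, and each kind was found next to its own kind more often than its share of all regions. Along a chromosome, the next region that was gained, lost or kept was lost after 55.4% of lost regions, where 45.9% of all such regions were lost. It was gained after 23.5% of gained regions, where 18.1% were gained, and kept after 47.1% of kept regions, where 36.0% were kept. The median distance from a lost region to the nearest other lost region was 41.2 kb, and from a kept region to the nearest other kept region 42.5 kb. From a gained region the nearest other gained region lay at a median of 103 kb, farther than the nearest lost region at 58.9 kb and the nearest kept region at 70.6 kb. Gained regions are the fewest of the 3 kinds, and no test was made.

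The longest unbroken runs of lost regions spanned megabases. Runs of at least 10 lost regions with no gained or kept region between them numbered 55 and held 647 lost regions. Kept regions formed 32 such runs with 420 members, 4.35% of kept regions against 5.26% of lost regions, and the longest single run was of 25 kept regions. The longest run of gained regions had 8 members. The longest run of lost regions, 21 over 1812 kb, was chr8:117605372-119416880. In that span the Tet2-WT day 10 libraries held 10, 16, 5 and 6 peaks, and the MEF libraries 69, 35, 57 and 42. The next, 18 regions over 2885 kb at chr8:43005910-45891135, held 3, 13, 2 and 1 peaks in Tet2-WT day 10 libraries and 46, 27, 31 and 30 in MEF libraries. The run of 8 gained regions at chr11:88102000-88544959 held 21, 24, 21 and 18 peaks in Tet2-WT day 10 libraries and 15, 10, 20 and 7 in MEF libraries. The groups overlapped in that span. Runs were described after their values had been seen.

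In fixed windows of 1 Mb, 1881 of the 2408 windows with a gained, lost or kept region held more lost than gained regions, and 328 held more gained than lost. The window with the most lost regions was chr6:17000001-18000000, with 23 lost and 2 gained. It held 20, 21, 18 and 14 peaks in Tet2-WT day 10 libraries and 67, 45, 63 and 59 in MEF libraries. It was followed by chr8:129000001-130000000 with 21 lost and 5 gained, chr15:64000001-65000000 with 18 and 3, chr8:85000001-86000000 with 17 and 2, and chr10:98000001-99000000 with 17 and 4. The windows with the most gained regions were mixed. chr1:137000001-138000000 held 11 gained and 9 lost regions, chr11:88000001-89000000 10 and 3, chr14:122000001-123000000 10 and 5, chr2:128000001-129000000 10 and 7, and chr7:29000001-30000000 9 and 3.

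The peaks were distributed differently over the chromosomes. Shares within a list were compared because counts rise with its length, but shares may also move with it. Chromosome 11 held 7.36% of the shortest Tet2-WT day 10 list and 6.86% of the longest. In MEFs it held 6.30% of the shortest list and 6.28% of the longest. Of 20 chromosomes 13 (65.0%) passed, with chromosomes 4, 5, 7, 9, 11 and 17 holding a larger share with Tet2-WT at day 10 (30.0%) and chromosomes 3, 10, 12, 13, 15, 16 and 18 a smaller one (35.0%). For these 13 the groups did not overlap (exact permutation p = 0.029, adjusted p = 0.0440 over 20 chromosomes). Shares of 1 list sum to a whole, so that the chromosomes are not independent.

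The largest rise was on chromosome 11, which held 7.11%, 6.86%, 7.35% and 7.36% of the peaks of Tet2-WT day 10 libraries, against 6.28%, 6.30%, 6.42% and 6.40% of those of MEF libraries. Chromosome 18 held 3.03% ± 0.0672 of the peaks in Tet2-WT day 10 libraries and 3.41% ± 0.0582 in MEF libraries (SD, n = 4 each). The X chromosome held 2.24% ± 0.151 in Tet2-WT day 10 libraries and 2.25% ± 0.0626 in MEF libraries, a difference of -0.00697 percentage points that did not pass (exact permutation p = 0.857, adjusted p = 0.902) and that ran from -0.0775 to 0.0361, on both sides of 0, when 1 library was left out. None of the 20 passed when all lists were cut to the same length (exact adjusted p = 0.0519 for 10 of the 13), or without Tet2-WT day 10 replicate 3 or 4 or any 1 MEF library (lowest exact adjusted p 0.0519 or 0.0571). Without Tet2-WT day 10 replicate 1 or 2, 12 and 15 passed. With lists of the same length the difference was 0.91 percentage points on chromosome 11, against 0.82 with whole lists, and -0.45 on chromosome 18, against -0.38. On chromosome 9 it was 0.00325, against 0.0997 with whole lists.

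The share of MEF regions that were lost also varied by chromosome. Of the regions that all 4 MEF libraries called, 52.9% were lost on chromosome 18 and 49.8% on chromosome 15, against 35.3% on the X chromosome, 35.5% on chromosome 7 and 37.3% on chromosome 11. Of the regions called in all 4 Tet2-WT day 10 libraries, the gained share ran from 21.2% on the X chromosome to 33.9% on chromosome 14. Lost regions outnumbered gained regions on each of the 20 chromosomes, with lost shares of 67.9% to 76.7%.

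**Figure D5:**
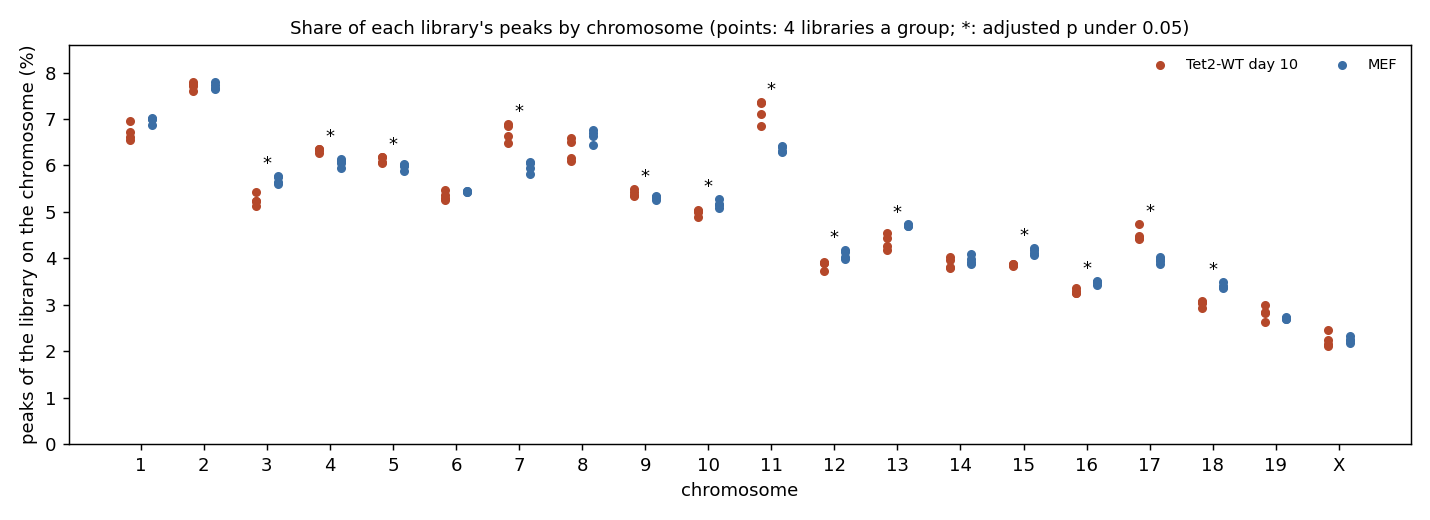
Share of each library's peaks, in percent, on each of 20 chromosomes for the 4 Tet2-WT day 10 (left of each pair) and 4 MEF libraries; asterisks mark the 13 chromosomes with an adjusted p under 0.05. Chromosomes 7, 11 and 17 lie higher in Tet2-WT day 10 libraries, and chromosomes 3, 13 and 18 lie lower.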

How the data were processed

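Peak lists of 28 libraries were used, 1 per library and with no pooling. The submitters' processing notes name Bowtie2, SAMtools, bedtools, MACS2 and the build mm9. Their versions and settings, the read filters and whether cut sites were shifted are not given in the sources, and each could move the edges and number of peaks. The deposited fold of a peak is the caller's ratio of summit to local background. The deposited -log10 p and -log10 q are the caller's values for each summit, with every q under 0.01. The deposited score per peak was not used. Fold and p were used only to describe, rank or filter peaks within a list. Background pileup was inferred from fold and p under the caller's Poisson model, which gave whole summit pileups for 100% of peaks (tolerance 0.0002).

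Peaks outside chromosomes 1 to 19 and X were left out. Peaks overlapping by 1 bp or more were merged, and calls were compared by 2-sided Fisher's exact tests over the regions called in exactly 4 of 8 libraries. Values per library and chromosome shares were compared by 2-sided exact permutation tests, whose smallest p at 4 against 4 is 0.029. P-values were adjusted by Benjamini-Hochberg, and those under 0.05 passed. The region test was tried on simulated data in which calls of unchanged regions fell at random and alike over the 8 libraries. Lists of unequal length were not simulated. Python 3.11.15, numpy 2.4.6, pandas 2.3.3, scipy 1.17.1 and matplotlib 3.10.9 were used.

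Named regions are the 10 gained and 10 lost with the highest mean fold percentile, up to 5 gained regions called in 0 of 8 day 10 libraries of the other vectors and up to 5 lost regions called in at least 7 of these 8, and the 5 windows richest in each kind. The regions compared, the lists and the rules were chosen with earlier results of these data known. Tests of motifs, gene starts, gene lists and markers were planned but not run, because no mm9 genome or annotation was used here. Same-numbered libraries did not deviate together, which cannot show whether they shared an embryo or culture. Replicate numbers were not used as pairs in the main tests. The alternatives were other overlap, threshold, merging and list length rules, a replicate block, and leaving out each library.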

Additional observations from a re-analysis of the deposited data

Results flagged for a closer look

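Among 60 groups of 4 libraries checked for a library far from the others, 2 were flagged, and chance flags about 1 in 20. Chromosome 12 held 3.73% of the peaks of Tet2-WT day 10 replicate 4, below the other 3 libraries of its group, whose highest value was 3.92%. Chromosome 1 held 6.87% of the peaks of MEF replicate 3, below the other 3 MEF libraries, whose highest value was 7.01%.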

How the results depend on the processing

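With regions called in at least 2 of 8 libraries 0 gained and 0 lost regions passed, with peaks that cover at least 50% of a region 2106 gained, and with lists cut to an equal number of peaks 7270 lost regions and 0 chromosomes. With -log10 q of at least 5 there were 3481 gained and 10431 lost regions, and with merged summits 4770 and 11864. Leaving out 1 library at a time gave 0 to 5221 gained and 0 to 16861 lost regions past the threshold, and 4914 to 6947 and 12529 to 16861 complete changes, with lost shares of 64.3% to 77.4%. Chromosomes past the threshold then numbered 0 to 15. The differences then spanned -6.79 to -4.15 Mb for covered length, -46.8 to -35.5 bp for median width, -4.61 to -3.41 percentage points for peaks over 500 bp, -20684 to -10419 for peaks and -0.00642 to 0.0823 for background pileup. Correlations of same-numbered libraries ran from -0.0217 to 0.0223, and only Tet2-WT day 10 replicate 2 correlated best with its own number. These values cannot show whether same-numbered libraries shared an embryo or culture. With a replicate block the smallest exact p is 0.125, so that 0 gained regions, 0 lost regions and 0 chromosomes could pass, and covered length (-5.77 Mb), median width (-41.5 bp) and the share of wide peaks (-4.09 percentage points) had an exact adjusted p of 0.208. Depth is known only as an inferred pileup, and a region that misses the caller's threshold may be open.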

Other observations

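On average the lists of MEF libraries overlapped each other more than those of Tet2-WT day 10 libraries did, but the ranges over pairs overlapped. The Jaccard index is the base pairs shared by a pair of lists over those covered by either. It averaged 0.402 among Tet2-WT day 10 libraries (0.358 to 0.453) and 0.459 among MEF libraries (0.421 to 0.482). Between the groups it averaged 0.202, with 0.155 to 0.229 over the 16 pairs. Lists of unequal length cannot reach a full overlap, and the difference was not tested.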
